A study of Mus musculus with 32 samples.

Results

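The genes described here are Npas4 and the genes of its dimer partners, Arnt and Arnt2, 3 of the 55573 genes counted by RNA-seq in mouse hippocampal neurons. They were found by symbol in the deposited gene tables. NPAS4 is a transcription factor of the bHLH-PAS family whose gene is switched on by calcium entry when neurons are depolarized, and it acts on genes that set the balance of excitatory and inhibitory synapses. It has to pair with ARNT or ARNT2 to bind DNA. ARNT is found in most tissues and also serves the hypoxia factors and the aryl hydrocarbon receptor, and ARNT2 is the form best known from brain.

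Hippocampi of newborn pups were pooled within a litter of C57BL/6 (WT) or Mettl3Flox/Flox mice and the neurons were grown for 15 days on a porous membrane. Neurites cross the membrane and were collected below it, and cell bodies, together with any neurites that did not cross, were collected above it as soma. Both genotypes were transduced at DIV7 with an AAV that carries Cre and dTomato under the neuronal hSyn promoter, so the WT neurons also carry Cre, and only neurons of Mettl3Flox/Flox litters can lose Mettl3 (Mettl3 KO). Before harvest all cultures were silenced overnight (16 h) by blocking sodium channels with TTX (1 µM) and NMDA receptors with D-AP5 (50 µM), and were then left untreated (Ctrl) or depolarized with 55 mM KCl for 2 h. The RNA-seq comprised 16 libraries, 2 for each of 8 groups, the replicates from inserts of distinct litters. By the study's methods Ctrl and KCl cultures came from the same litter. DART-seq comprised 16 further libraries, for which values averaged by the authors were used.

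The libraries held 33789183 to 71394235 counts, and PCR copies were not told apart, so counting error is a lower limit of the error. Levels are given in CPM, counts scaled to library size by TMM, and levels of different genes are compared only as CPM per kb of exon. All 10 neuronal markers had counts in every library, with a summed level of 5393 to 13013 CPM in WT and 1950 to 8652 CPM in Mettl3 KO. In 3 Mettl3 KO libraries the median correlation with the other libraries was 0.778 to 0.858, against 0.923 to 0.957 in the other 13. These were soma Ctrl replicate 2, soma KCl replicate 1 and neurite KCl replicate 1. The last of these held 17059 CPM of 6 astrocyte markers and 6963 CPM of 7 oligodendrocyte lineage markers, and soma KCl replicate 1 held 8589 and 3511 CPM, while the WT libraries held 752 to 2451 and 57.8 to 124 CPM. Mettl3 KO neurite Ctrl replicate 1, not among these 3, held 5734 and 203 CPM, and it stays in the fits without the 3. Replicates varied more in Mettl3 KO, with a biological coefficient of variation (edgeR, common to all genes) of 0.505 against 0.151 in WT. Mettl3, counted over all its exons, lay at 12.3 to 17.3 CPM in the Ctrl libraries of WT and at 4.15 to 11.6 CPM in those of Mettl3 KO. Its log2 difference was −0.72 in soma Ctrl, −0.91 in soma KCl, −1.197 in neurites Ctrl and −0.72 in neurites KCl, with edgeR adjusted p of 0.625, 0.307, 0.397 and 0.273, none called. Without the 3 libraries that stand apart it was called in neurites, at −1.16 without KCl (edgeR adjusted p = 0.0165) and −1.35 with KCl (edgeR adjusted p = 0.0359). Counts over all exons do not single out the exon flanked by loxP sites, whose loss the study shows. The study also reports near complete removal of METTL3 protein and lower m6A. Cells in which hSyn is silent keep Mettl3. Fewer neurons and less RNA per neuron cannot be told apart in these bulk samples.

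The m6A sites of these RNAs were read by DART-seq, in which a C next to a methylated A is converted to U. The sites deposited for Npas4 were 7 and those for Arnt2 were 5, and Arnt was not listed among the 5643 RNAs with a site. The sequences below show what was edited: 21 bases of the transcribed strand around each site, from GRCm38, with the RAC motif (R is A or G) in capitals and the edited C as its last letter.
Npas4 intron 1, chr19:4989557-4989577, minus strand: tgtgctaaAACtgccgcttgt
Npas4 coding exon 3, chr19:4988498-4988518, minus strand: accctgctGACcatctcactg
Npas4 intron 5, chr19:4987684-4987704, minus strand: gtggtccaAACtgatgttaag
Npas4 intron 5, chr19:4987604-4987624, minus strand: agttagaaAACactgtgtgat
Npas4 intron 7, chr19:4985539-4985559, minus strand: gctagaaaAACgcgatagaca
Npas4 coding exon 8, chr19:4985069-4985089, minus strand: tggaggggAACcaacgttttg
Npas4 3′UTR, chr19:4984375-4984395, minus strand: ttgtagccAACtttataataa
Arnt2 3′UTR, chr7:84249102-84249122, minus strand: tgctcagtAACttggaaagaa
Arnt2 3′UTR, chr7:84247745-84247765, minus strand: ttctccaaAACacatgtggag
Arnt2 3′UTR, chr7:84247685-84247705, minus strand: cccacaagGACttctctcacc
Arnt2 3′UTR, chr7:84247417-84247437, minus strand: aggaaaggGACatgcaaggac
Arnt2 3′UTR, chr7:84247170-84247190, minus strand: ggtgacatAACctgctgagga

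Npas4 (ENSMUSG00000045903, protein-coding, GRCm38 chr19:4984355-4990316, minus strand) was near the middle of the expressed genes in silenced neurons and among the most abundant RNAs after KCl. In WT soma the level was 5.20 and 4.86 CPM without KCl and 849 and 1613 CPM with KCl. In WT neurites it was 7.19 and 6.52 CPM without KCl and 760 and 971 CPM with KCl. No library with KCl overlapped a library without it in either fraction. By CPM per kb, Npas4 ranked 13465 of 23335 genes in WT soma Ctrl and 155 in WT soma KCl, and 12374 and 342 in WT neurites.

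**Figure D1:**
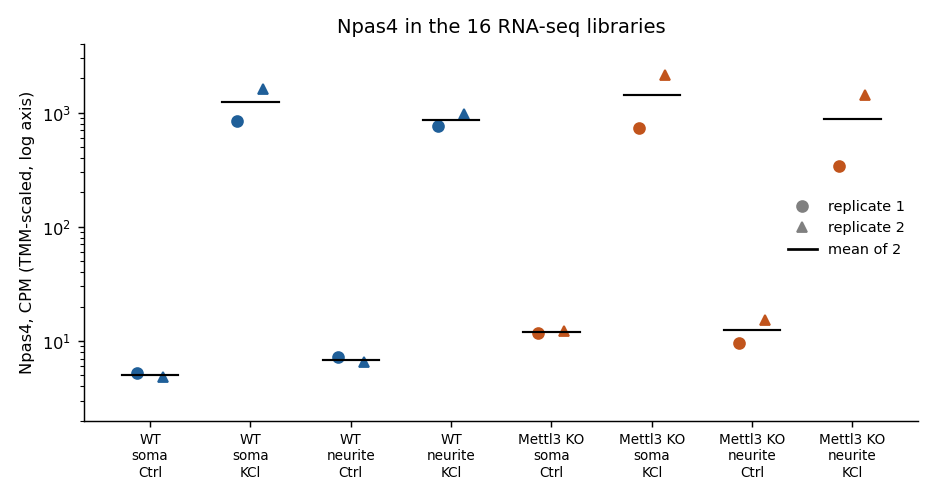
Level of Npas4 in each RNA-seq library, in TMM-scaled CPM on a log axis, by genotype, fraction and treatment, with a circle for replicate 1, a triangle for replicate 2 and a line for the mean of 2. The 8 Ctrl libraries lie between 4.86 and 15.3 CPM and the 8 KCl libraries between 339 and 2121 CPM.

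The response to KCl was fitted in edgeR on the 8 libraries of a genotype, and a gene was called at 2-fold with an adjusted p of at most 0.05. In WT soma the log2 fold change of Npas4 was 7.94 (standard error 0.33, 246-fold, edgeR adjusted p = 2.4e-07), and 6.81% of the 23200 genes tested were called in either direction. In WT neurites it was 7.06 (standard error 0.32, 133-fold, edgeR adjusted p = 5.4e-07), where 4.94% of genes were called. These p-values rest on the spread within groups of 2 libraries, each from its own litter. The fit had no term for the litter that Ctrl and KCl share or the insert that soma and neurites share. By size of the rise, Npas4 stood at rank 2 of 23200 in soma and at rank 11 in neurites.

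In Mettl3 KO neurons the same rise was seen in each litter, with a larger spread. The soma held 11.7 and 12.3 CPM without KCl and 741 and 2121 CPM with KCl, and the neurites held 9.61 and 15.3 CPM without and 339 and 1436 CPM with KCl. The KCl level differed between replicates by 2.86-fold in soma and 4.23-fold in neurites, and the lower value was in both fractions that of replicate 1, whose libraries stood apart and held the most glial marker RNA. The part of that RNA in the lower level was not tested. The log2 fold change was 6.90 in soma (standard error 0.97, unadjusted p = 1.1e-04, edgeR adjusted p = 0.301) and 6.15 in neurites (standard error 0.94, unadjusted p = 1.9e-04, edgeR adjusted p = 0.389), so neither was called. In these fits edgeR called 0% of 23099 genes in soma and 0% in neurites, with 1432 and 1413 genes past 2-fold when p (0.05) was left unadjusted. DESeq2 called 218 higher and 52 lower genes in soma and 224 and 27 in neurites. Without the 3 libraries that stand apart, an alternative chosen after the data were seen, the values for Npas4 were 7.48 (edgeR adjusted p = 1.8e-05) and 6.94 (edgeR adjusted p = 1.5e-06), both called. DESeq2, the fit without a filter on low counts and the fit to all 16 libraries called both as well.

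Levels of Npas4 without KCl were higher in Mettl3 KO than in WT in each library, at 11.7 and 12.3 against 5.20 and 4.86 CPM in soma and 9.61 and 15.3 against 7.19 and 6.52 CPM in neurites. The log2 difference was 1.28 in soma Ctrl (standard error 0.62, edgeR adjusted p = 0.589) and 0.85 in neurites Ctrl (standard error 0.61, edgeR adjusted p = 0.8998), and neither was called in the fit to 16 libraries, where 0.189% and 0.171% of 23335 genes were called at 1.5-fold. The silenced cultures of the 2 genotypes therefore did not overlap, but the difference did not pass the test. With KCl the log2 difference was 0.21 in soma (standard error 0.60, edgeR adjusted p = 0.898) and 0.055 in neurites (standard error 0.60, edgeR adjusted p = 0.968), and the groups overlapped, with 0.227% and 0.433% of genes called. The response to KCl was smaller in Mettl3 KO by 1.06 in soma on the log2 scale (standard error 0.86, edgeR adjusted p = 0.991) and by 0.80 in neurites (standard error 0.86, edgeR adjusted p = 0.880). Neither difference was called, and 0% of genes were called in soma and 0% in neurites by edgeR. With p (0.05) left unadjusted edgeR had 468 and 1003 genes past 1.5-fold, and DESeq2 called 2 and 0.

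The partner genes lay at low and moderate levels in every library. Arnt2 (ENSMUSG00000015709, protein-coding, GRCm38 chr7:84246278-84410176, minus strand) was at 62.9 and 63.0 CPM in WT soma Ctrl and 62.5 and 75.6 CPM in WT soma KCl. In WT neurites it was at 96.1 and 91.9 CPM without KCl and 92.7 and 88.0 CPM with KCl. Its 4 neurite libraries thus lay above its 4 soma libraries, and Ctrl and KCl overlapped in soma.

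Arnt (ENSMUSG00000015522, protein-coding, GRCm38 chr3:95434388-95497240, plus strand) was at 17.6 and 18.4 CPM in WT soma Ctrl and 16.6 and 16.1 CPM in WT soma KCl. In WT neurites it was at 14.1 and 13.2 CPM without KCl and 13.2 and 13.6 CPM with KCl. The 4 soma libraries lay above the 4 neurite libraries, the reverse of Arnt2.

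Neither partner was called for a response to KCl in WT. The log2 fold change of Arnt was −0.14 in soma (standard error 0.13, edgeR adjusted p = 0.532) and 0.06 in neurites (standard error 0.13, edgeR adjusted p = 0.830). That of Arnt2 was 0.14 in soma (standard error 0.12, edgeR adjusted p = 0.542) and 0.02 in neurites (standard error 0.12, edgeR adjusted p = 0.930).

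**Figure D2:**
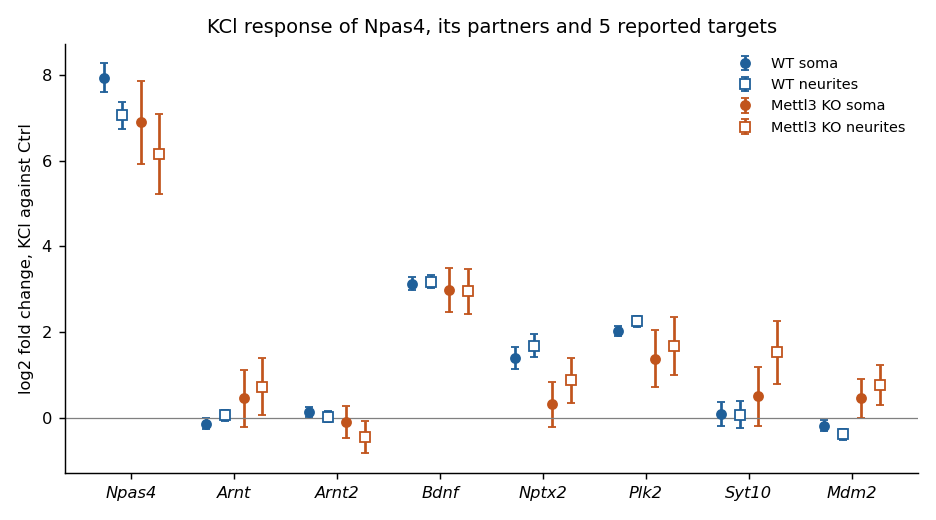
Log2 fold change of KCl against Ctrl with its standard error (bars) for Npas4, its partners and 5 genes reported as NPAS4 targets, in soma (filled circles) and neurites (open squares) of WT (blue) and Mettl3 KO (orange) neurons. Npas4 lies between 6.15 and 7.94, while Arnt lies between −0.14 and 0.72 and Arnt2 between −0.46 and 0.14.

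In Mettl3 KO the partners varied more between replicates. With KCl, Arnt was at 24.4 and 11.7 CPM in soma and at 28.04 and 7.40 CPM in neurites, and both high values belonged to replicate 1, the insert with the most glial marker RNA. Without KCl it was at 12.04 and 14.4 CPM in soma and 8.95 and 12.5 CPM in neurites. Arnt2 was at 57.9 and 46.6 CPM in soma Ctrl and 39.3 and 58.8 CPM in soma KCl, and at 82.4 and 62.04 CPM in neurites Ctrl and 44.0 and 60.1 CPM in neurites KCl, so replicate 1 with KCl was the low one. No response to KCl was called for either gene, with log2 values for Arnt of 0.45 in soma and 0.72 in neurites (standard errors 0.67 and 0.67) and for Arnt2 of −0.09 and −0.46 (standard errors 0.38 and 0.38). Without the 3 libraries that stand apart, the values of Arnt turned to −0.06 and −0.44.

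Against WT, Arnt2 was lower in Mettl3 KO neurites with KCl by a log2 value of −0.77 (standard error 0.26, unadjusted p = 0.0117, edgeR adjusted p = 0.134), and the 2 KO libraries lay below the 2 WT libraries. It was not called, and was called at −1.004 (edgeR adjusted p = 0.0304) when neurite KCl replicate 2 of Mettl3 KO was left out, which leaves on the Mettl3 KO side only replicate 1, the library with 17059 CPM of astrocyte markers. Without replicate 1 it was −0.56 (edgeR adjusted p = 0.628). The other log2 differences of Arnt2 were −0.49 in soma KCl, −0.41 in neurites Ctrl and −0.24 in soma Ctrl, with adjusted p from 0.399 to 0.852. For Arnt in neurites KCl the value was 0.43 (standard error 0.50, edgeR adjusted p = 0.633). It became −0.83 without neurite KCl replicate 1 and 1.10 (edgeR adjusted p = 0.0482) without replicate 2, so a single library set its direction.

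**Figure D3:**
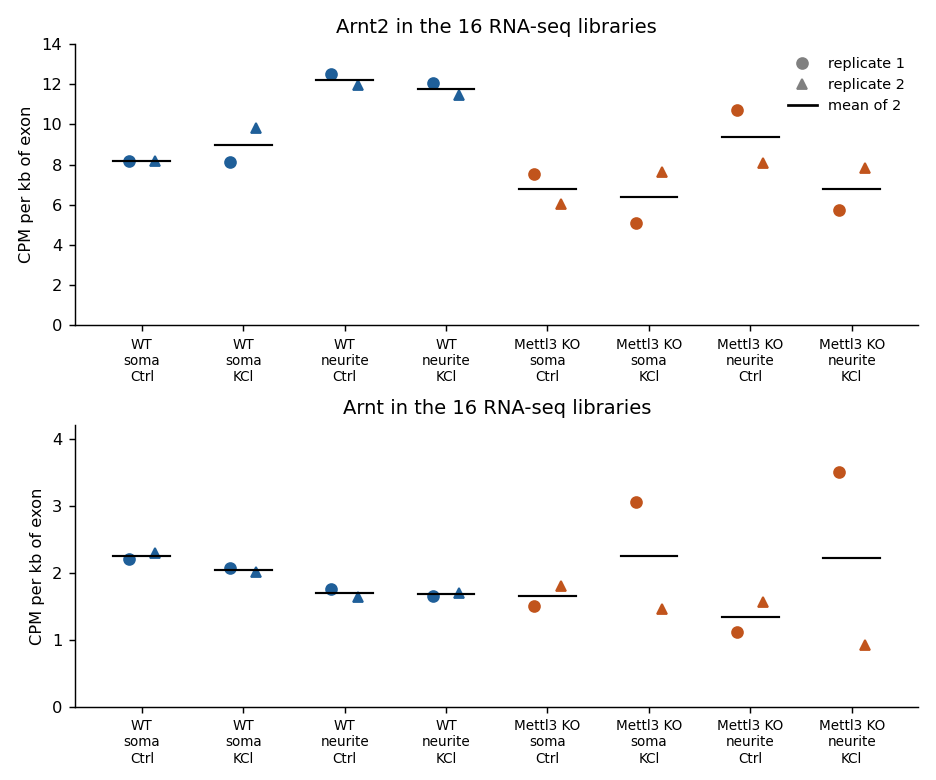
Levels of Arnt2 (top) and Arnt (bottom) in each RNA-seq library, in CPM per kb of exon from 0, with a circle for replicate 1, a triangle for replicate 2 and a line for the mean of 2. In WT, Arnt2 is higher in neurites (11.4 to 12.5) than in soma (8.13 to 9.83) and Arnt is lower in neurites (1.64 to 1.76) than in soma (2.01 to 2.29), and the Mettl3 KO replicates with KCl lie far apart for Arnt.

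Per kb of exon, Arnt2 lay above Arnt in all 16 libraries. The length used was that of all annotated exons, 8007 bases for Arnt and 7689 for Arnt2. Their principal transcripts hold 2699 and 6151 bases, by which each ratio would be lower. That Arnt2 was above in all 16 rests on the length used. The ratio of Arnt2 to Arnt was 3.57 and 3.71 in WT soma Ctrl and 7.11 and 7.27 in WT neurites Ctrl, and 3.93 and 4.90 in WT soma KCl and 6.74 and 7.29 in WT neurites KCl. The ratio was higher in neurites than in soma of the same insert in 4 of 4 WT and 3 of 4 Mettl3 KO inserts, and the exception was KCl-treated replicate 1, with 1.68 in soma and 1.64 in neurites.

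The order of the 3 RNAs turned over with KCl. In WT Ctrl libraries Arnt2 exceeded Npas4 by 6.51 to 7.58-fold per kb, and Arnt exceeded Npas4 by 1.01 to 1.95-fold. In WT KCl libraries Npas4 exceeded Arnt2 by 15.2 to 39.7-fold and Arnt by 99.3 to 194-fold. In Mettl3 KO, Npas4 was above Arnt per kb of exon in the 4 Ctrl libraries, by 1.65 to 2.37-fold. It was below Arnt2, which exceeded it by 2.04 to 4.61-fold. With KCl it exceeded Arnt2 by 14.3 to 67.0-fold and Arnt by 23.4 to 375-fold. The order of Npas4 and Arnt in Mettl3 KO without KCl rests on the exon lengths used, 4136 bases for Npas4 and 8007 for Arnt. The principal transcripts hold 3622 and 2699 bases, by which Arnt would stand higher. These ratios compare RNA levels and say nothing of the proteins. The 3 genes share no stretch of 50 bases in their annotated transcripts, which keeps reads of 1 from being counted for another over a whole read. The exons of Arnt2 overlap those of Gm30873 on the other strand by 214 bases, and that gene held 45 counts over the 16 libraries against 54973 for Arnt2.

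The distribution between neurites and soma was compared next, at 1.5-fold and an adjusted p of at most 0.05. Without KCl, neurites of WT exceeded soma for Arnt2 by a log2 value of 0.51 (standard error 0.12, 1.43-fold, edgeR adjusted p = 0.0160), and lay below soma for Arnt by −0.47 (standard error 0.13, 1.38-fold lower, edgeR adjusted p = 0.0278). Both passed the p but not the fold, so neither was among the 13.5% of genes called. This fit has no term for the insert that soma and neurites share. With the replicate block the adjusted p was 0.0391 for Arnt2 and 0.0609 for Arnt, which then no longer passed. In a fit to the 4 WT Ctrl libraries by themselves, Arnt2 reached 0.59 (edgeR adjusted p = 0.001879) and was called. For Npas4 the value was 0.38 (standard error 0.27, edgeR adjusted p = 0.345).

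With KCl the log2 values in WT were 0.40 for Arnt2 (standard error 0.12, edgeR adjusted p = 0.0547), −0.27 for Arnt (standard error 0.13, edgeR adjusted p = 0.198) and −0.50 for Npas4 (standard error 0.24, edgeR adjusted p = 0.204), against 9.54% of genes called. For Npas4 this value rested on soma KCl replicate 2: it was 0.06 without it and −0.87 (edgeR adjusted p = 0.002478) without replicate 1. In Mettl3 KO, none of the 3 genes was called, and edgeR called 0% of genes without and 0% with KCl (1214 and 146 with p left unadjusted, and by DESeq2 7 higher and 1 lower without KCl and 0 with KCl). The log2 values there were −0.00 and −0.74 for Npas4, −0.36 and −0.09 for Arnt, and 0.39 and 0.03 for Arnt2, without and with KCl.

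Summed marker RNA of each cell type also differed between the fractions of WT Ctrl. The astrocyte markers summed to 752 and 766 CPM in soma and to 2451 and 1491 CPM in neurites, and the neuronal markers to 5393 and 5786 CPM in soma and 11430 and 13013 CPM in neurites. The neuronal list includes Camk2a and Map2, whose RNAs the study reports in neurites, so its sum is not a measure of neuron content alone. Oligodendrocyte lineage markers summed to 60.8 and 69.4 CPM in soma and 120 and 124 CPM in neurites. Markers of fibroblasts and vascular cells summed to 15.8 and 11.4 against 30 and 78.5 CPM, and those of microglia to 11.8 and 10.7 against 17.8 and 19.8 CPM. The part of these markers in the values of Arnt and Arnt2 was not tested.

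**Figure D4:**
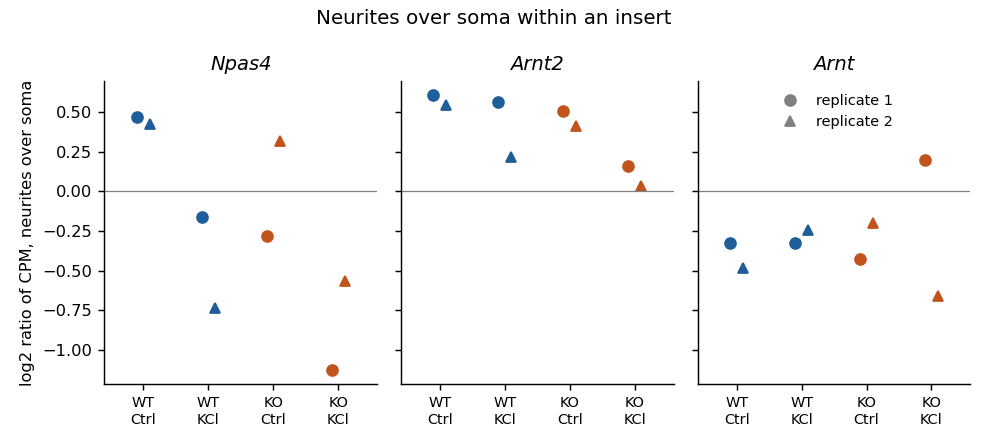
Log2 ratio of CPM in neurites over soma for each insert, for Npas4, Arnt2 and Arnt, by genotype and treatment, with a circle for replicate 1 and a triangle for replicate 2. The WT ratios of Npas4 lie above 0 without KCl (0.47 and 0.42) and below 0 with KCl (−0.16 and −0.73).

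Whether KCl shifted the RNA between fractions was tested with 1 term per insert, at 1.5-fold and p of at most 0.05, not adjusted. For Npas4 in WT, neurites held 1.38 and 1.34 times the soma level without KCl and 0.895 and 0.602 times with KCl. The KCl change in neurite enrichment was −0.81 on the log2 scale (standard error 0.24, unadjusted p = 0.008612, edgeR adjusted p = 0.999), which was called, as were 3.36% of genes. It was lost when 1 of 3 libraries was left out, at −0.49 without soma KCl replicate 2, −0.49 without neurite KCl replicate 2 and −0.82 without neurite Ctrl replicate 1 (unadjusted p = 0.0506). Arnt and Arnt2 were not called, with 0.20 (standard error 0.20) and −0.10 (standard error 0.20). In Mettl3 KO the value for Npas4 was −0.86 (standard error 0.48, unadjusted p = 0.117), against 2.23% of genes called, and it was called at −1.22 without soma Ctrl replicate 1 or neurite Ctrl replicate 1. Those of Arnt and Arnt2 were 0.10 and −0.35 (standard errors 0.50 and 0.39).

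The m6A sites of Npas4 and Arnt2 lay in different parts of their genes. In the principal protein-coding transcript of Npas4 (GENCODE M21, 8 exons), 4 of the 7 sites fell in introns 1, 5 and 7, 2 in coding exons 3 and 8, and 1 in the 3′UTR. The 2 sites of intron 5 are exonic in an annotated transcript that keeps this intron, while those of introns 1 and 7 lay outside all exons of Npas4 in the count table. Over all genes, 1.65% of 18130 sites lay outside the counted exons of their gene. Among the deposited values, those of the intron sites were the highest of the gene. The share of reads converted was 11.3% in intron 7, 6.60% and 4.22% in intron 5 and 3.57% in intron 1. These values were taken as the authors' mean over WT libraries, but that reading is uncertain for Npas4. The 4 intron values sum to 25.6%, more than the authors' WT score for all 7 sites, a sum of fractions of 0.183. They are thus not the means behind that score, and the order of intron and exonic sites holds for the deposited values only. The 3 exonic sites held 1.75% in exon 3, 1.69% in exon 8, 11 bases before the end of the stop codon, and 2.39% in the 3′UTR, 30 bases from its end. The median over all 18231 sites was 3.54%. The study searched annotated exons and extended 3′UTRs, and the annotation behind that step is not given in the sources used here.

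All 5 sites of Arnt2 lay in the 3′UTR, within its last exon. They held 9.52% at 944 bases after the stop codon, 8.68% at 2301 bases, 3.25% at 2361 bases, 2.53% at 2629 bases and 3.65% at 2876 bases. The last was 902 bases from the annotated end. An A precedes AC at 6 of 7 sites of Npas4 and at 3 of 5 of Arnt2, and the longer motif DRACH (D is A, G or T and H is A, C or T) was met by 5 of 7 and 5 of 5.

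**Figure D5:**
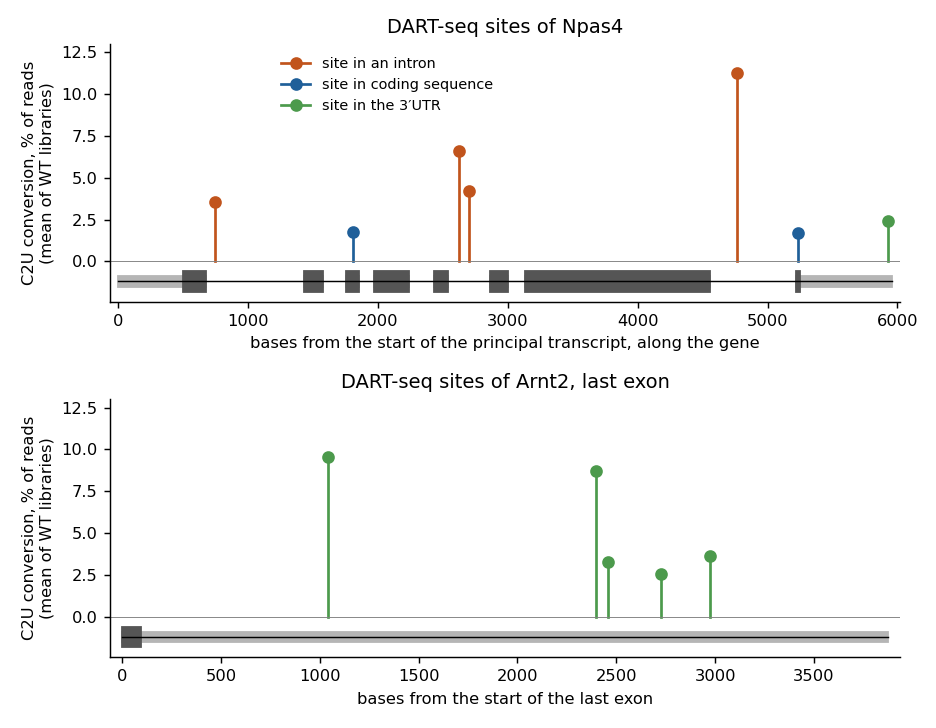
C2U conversion at each DART-seq site, in percent of reads, taken as the authors' mean of WT libraries. For both genes these deposited values sum to more than the authors' WT score. The top shows the Npas4 gene from the start of its principal transcript and the bottom the last exon of Arnt2, in bases. Below the stems, tall dark boxes are coding and low grey boxes untranslated exon parts, and the 4 intron sites of Npas4 (3.57 to 11.3%) exceed its 3 exonic sites (1.69 to 2.39%), while the Arnt2 sites are all in the 3′UTR.

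The authors' editing score of an RNA sums the average conversion of its sites. For Npas4 it was 0.183 in WT and 0.0711 in Mettl3 KO, and 0.146 in soma and 0.243 in neurites. For Arnt2 it was 0.225 in WT and 0.0631 in Mettl3 KO, and 0.219 in soma and 0.231 in neurites. WT thus exceeded Mettl3 KO by 2.58-fold and 3.57-fold, where the median RNA had 3.10, but sites had to exceed Mettl3 KO to be called. Neurites exceeded soma by 1.67-fold for Npas4 and 1.05-fold for Arnt2, where the median of 5594 RNAs was 1.30. Npas4 had more sites than 89.3% of the RNAs listed and Arnt2 more than 77.0%.

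These scores carry no replicates and no depth, and pool Ctrl with KCl, so no test was made. Only about 219 to 406 counts of Npas4 stood in a WT Ctrl library of the RNA-seq and 32045 to 113494 in a KCl library. The sum of the deposited site values was 0.315 for Npas4 and 0.276 for Arnt2, so the WT score was 0.583 and 0.815 of that sum. The median of this ratio over all RNAs was 1.00, and 1.28% of RNAs had one under 0.6.

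Of 16 other genes of the bHLH-PAS family, 15 were tested and Sim1 was not, for its low counts. The 16 were Npas1, Npas2, Npas3, Sim1, Sim2, Hif1a, Epas1, Hif3a, Ahr, Ahrr and Clock, which need a partner of the ARNT type, Arntl and Arntl2, which are such partners, and the coactivators Ncoa1, Ncoa2 and Ncoa3. KCl changed 1 of 15 in WT soma and 1 of 15 in WT neurites, both downward, near the shares of all genes called (6.81% and 4.94%), so the counts set the family apart from no other genes. Their median log2 change was −0.25 and −0.10, against 0.01 and 0.01 over all genes. Ahr, the aryl hydrocarbon receptor, fell from 7.09 and 6.23 to 2.77 and 3.01 CPM in WT soma (log2 −1.2, edgeR adjusted p = 0.0111). Hif3a, a hypoxia factor, fell from 1.202 and 0.923 to 0.308 and 0.203 CPM in WT neurites (log2 −1.98, edgeR adjusted p = 0.0139). The call of Ahr was lost without soma Ctrl replicate 1 (log2 −1.03, edgeR adjusted p = 0.134) or replicate 2 (−1.21, edgeR adjusted p = 0.0697). That of Hif3a was lost without neurite Ctrl replicate 1 (−1.81, edgeR adjusted p = 0.0535) or neurite KCl replicate 2 (−1.69, edgeR adjusted p = 0.140).

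Npas2 and Clock, which pair with ARNTL in the circadian clock, were not called, at −0.66 and −0.28 in soma and −0.94 and −0.20 in neurites. Arntl was at −0.25 and −0.23. Hif1a, whose protein pairs with ARNT in low oxygen, was at 0.16 and 0.17. None of the 15 was called for the response to KCl in Mettl3 KO, where edgeR called 0% of genes, or for a difference between the genotypes, where it called at most 0.433%. For the KCl change in neurite enrichment in Mettl3 KO 1 of 15, Epas1, was called lower (log2 −1.61, unadjusted p = 0.0209), against 2.23% of genes.

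Epas1, which encodes the hypoxia factor HIF-2α and also pairs with ARNT, was the only 1 of the 15 called between fractions in WT, where 13.5% of all genes were called without and 9.54% with KCl. It was at 5.36 and 5.66 CPM in soma and 22.5 and 12.9 CPM in neurites without KCl (log2 1.62, edgeR adjusted p = 0.00224), and at 4.65 and 6.60 against 12.98 and 14.9 CPM with KCl (log2 1.31, edgeR adjusted p = 0.00797). The second call was lost without neurite KCl replicate 2 (1.23, edgeR adjusted p = 0.0554). The astrocyte markers also differed between these fractions, and their part in this value was not tested. Among RNAs with a DART-seq site, 3 of the 16 were listed: Npas1 with 1 site, Hif1a with 1 and Clock with 4. Their editing scores were higher in neurites than in soma, at 0.109 against 0.0315, 0.180 against 0.0829 and 0.122 against 0.112. The median RNA also had a higher score in neurites, by 1.30-fold, so this direction is general.

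Of 5 genes reported as NPAS4 targets, 3 rose with KCl in both fractions of WT, where 6.81% (soma) and 4.94% (neurites) of all genes were called in either direction. Bdnf, which encodes a secreted neurotrophin, rose by a log2 value of 3.12 in soma (standard error 0.15, edgeR adjusted p = 5.99e-07) and 3.17 in neurites (standard error 0.15, edgeR adjusted p = 7.33e-07). Plk2, a kinase of activated neurons, rose by 2.03 and 2.25 (edgeR adjusted p = 2.66e-06 and 1.72e-06). Nptx2, which encodes a secreted pentraxin of excitatory synapses, rose by 1.40 and 1.68 (edgeR adjusted p = 0.00519 and 0.00327), and in soma it fell below 2-fold without KCl replicate 2 (0.95, edgeR adjusted p = 0.0176). Syt10, a synaptotagmin, was at 0.08 and 0.06, and Mdm2, which encodes a ubiquitin ligase of p53, at −0.19 and −0.39, neither called. The median of the 5 was 1.40 in soma and 1.68 in neurites. In Mettl3 KO none was called. Bdnf was at 2.98 in soma and 2.95 in neurites (edgeR adjusted p = 0.302 and 0.389), Plk2 at 1.38 and 1.67, Nptx2 at 0.32 and 0.87, Syt10 at 0.50 and 1.52 and Mdm2 at 0.45 and 0.77. These genes also respond to other factors, so their rise is not a measure of NPAS4. Between the fractions of WT with KCl, Mdm2 was called lower in neurites, 1 of the 5, where 9.54% of all genes were called in either direction. With 1 library left out its log2 value was −0.74 to −0.45, and the call was lost in 2 of 4 fits.

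A list of 6 RNAs usually placed in the nucleus or soma gives a rough scale for the fractions. The study detected Malat1, Neat1 and Meg3 in neurites too, at lower levels than in soma, and found Snhg11 almost only in soma. Those findings come from the same WT libraries, so the calls below are no independent support. In WT Ctrl, Meg3 and Snhg11 were lower in neurites by log2 values of −1.15 and −1.31 and were called, 2 of 6 on this list. Over all genes 13.5% were called in either direction, and 1048 of 23200 were called lower. With KCl both were called again, at −0.97 and −1.11, against 9.54% of all genes in either direction and 627 of 23200 called lower. Malat1 was at −0.44 and −0.26, Neat1 at −0.51 and −0.86, Miat at −0.76 and −0.46 and Rian at −0.08 and −0.09. With KCl the 6 lay between −1.11 and −0.09. Npas4 at −0.50 fell within that range, as did Arnt at −0.27, so the range does not set Npas4 apart. KCl raised Neat1 in WT soma (log2 1.17, edgeR adjusted p = 0.0232), a call lost without soma Ctrl replicate 1 (1.40), soma Ctrl replicate 2 (1.12) or soma KCl replicate 2 (0.69), and 0 of 6 were called in WT neurites by edgeR, although Rian, Meg3, Malat1 and Neat1 had unadjusted p of 0.0102, 0.0104, 0.0189 and 0.0249.

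Across the 16 libraries and 15169 other genes (mean count of 100 or more), the patterns most like Npas4 were those of Nr4a1 (Pearson r = 0.996), Nr4a2 (0.994) and 1700016P03Rik (0.993), computed on log2(CPM + 1). Nr4a1 and Nr4a2 encode nuclear receptors of the immediate early class, and their log2 response in WT soma was 7.61 and 7.23. The patterns most like Arnt2 were Irgq (0.974), Akap6 (0.970) and D430019H16Rik (0.966), and those most like Arnt were Washc4 (0.940), Pank3 (0.932) and Kdm5d (0.929). Between the members r was 0.05 for Npas4 and Arnt, −0.15 for Npas4 and Arnt2 and −0.47 for Arnt and Arnt2. Arnt was highest in KCl-treated Mettl3 KO replicate 1, at 24.4 CPM in soma and 28.04 CPM in neurites. Those libraries stood apart, and their weight in the values of r was not tested. The libraries share litters, inserts and treatment, so these values describe the 16 libraries and carry no test.

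The promoters were searched for the 7 letters TGACGTC on both strands, most of the cAMP response element that CREB binds, since CREB is known to act on genes induced by depolarization. In the 250 bases before the RefSeq start (GRCm38.p6), Npas4 held this motif at 2 places, Arnt at 1 place where it reads as TGACGTCA on both strands, and Arnt2 at none. Of the 32851 promoters listed, 2.78% held it and 0.0974% held it at 2 or more places. The stretches that carry it are shown with the motif in capitals, in the direction of the gene.
Npas4, chr19:4990129-4990158, minus strand: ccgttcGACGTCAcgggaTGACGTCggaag
Arnt, chr3:95434140-95434169, plus strand: ttgcatttcacTGACGTCAatttggttatg
The stretch of Npas4 lies 158 to 187 bases before the RefSeq start and, in GENCODE M21, inside the first exon of its principal transcript. The motif was chosen after these sequences had been seen. A match describes these letters and is not a bound site: Arnt held one and was not called for a response to KCl.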

How the data were processed

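RNA-seq values are the deposited fragment counts per gene, without normalization, made by the authors with STAR 2.7.7a and featureCounts 2.0.1 on Ensembl exons of GRCm38, reads with several places included and strand not used. DART-seq values are the authors' editing scores per RNA and the deposited C2U fraction per site. Sites have a RAC motif and more editing than in Mettl3 KO. The site fractions carry no label and were taken as means over WT libraries by the study's methods. For Npas4 and Arnt2 they sum to more than the WT score, so this reading is uncertain. The authors' fold changes and p-values were not used, and 0 per-sample columns were left unassigned.

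Counts were tested in edgeR 4.0.16 (R 4.3.3; TMM, two-sided quasi-likelihood F-test, Benjamini-Hochberg over all genes averaging at least 10 counts, without 37 mitochondrial genes, all at 0). Comparisons within a genotype used its 8 libraries and those between genotypes all 16, since the genotypes differ in spread. This choice was made with that difference in spread already known from these data, and calls in WT depend on it. Shifts between fractions had 1 term per insert, by the study's methods. Same-numbered soma and neurite libraries, taken as 1 insert, deviated together at r = −0.14 and 0.000679 in WT and 0.0685 and 0.902 in Mettl3 KO. Same-numbered Ctrl and KCl libraries, taken as 1 litter, did so at −0.0856 to 0.175.

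Alternatives were DESeq2 1.42.0, limma 3.58.1 (voom), RLE scaling, other filters, other library sets, the replicate block and each library left out. The model was also run on data simulated from its own mean levels and spread. These had no litter or insert effects and no libraries that stand apart, so that run cannot test those features. Named are the members, every called gene of the lists with a few uncalled ones, and the 3 genes closest to each member in pattern. The members, lists and named genes, and the motif searched, were chosen with earlier results of these data known. Sites were placed with GENCODE M21, promoters come from RefSeq (all 3 genes matched), and figures were drawn with Python 3.11.15 and matplotlib 3.10.9. Replicates are distinct litters, 2 per group.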

Additional observations from a re-analysis of the deposited data

Results flagged for a closer look

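For Npas4 in WT neurons the KCl change in neurite enrichment was −0.81 on the log2 scale by a test of the difference itself (unadjusted p = 0.008612, edgeR adjusted p = 0.999). It passed the unadjusted threshold only, and the call was lost in 3 of 8 fits with 1 library left out, at −0.49 without soma KCl replicate 2, −0.49 without neurite KCl replicate 2 and −0.82 without neurite Ctrl replicate 1. Neurites held 1.34 and 1.38 times the soma level in the 2 untreated inserts and 0.602 and 0.895 times in the 2 KCl-treated inserts. Lying on 1 side of equality within each treatment was a rule by which results were flagged, so it adds no support. In this edgeR test 966 of 23200 genes had an unadjusted p of at most 0.05. For Epas1 in Mettl3 KO neurons the same change was −1.61 (unadjusted p = 0.0209, edgeR adjusted p = 1.00), with soma at 4.36 and 4.44 CPM without and 12.4 and 11.4 CPM with KCl and neurites at 34.2 and 15.5 CPM without and 26.3 and 15.5 CPM with KCl, and it was lost in 3 of 8 fits with 1 library left out. No group held more than 2 libraries, so no single library could be tested as lying far from its group.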

How the results depend on the processing

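Of 345 values of the 3 genes under other tools, filters, scalings and library sets, 316 kept their sign and their side of the threshold; of 240 with 1 library left out, 201 did. The KCl response of Npas4 in WT stayed called in all of them. Its response in Mettl3 KO soma and neurites became called at 6.92 and 6.17 with DESeq2, 6.92 and 6.14 without the filter, 6.95 and 6.23 with all 16 libraries, and 7.48 and 6.94 without the 3 libraries that stand apart.

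The other changes concern values that were not called and whose sign turned (log2, the cause was not tested). For Arnt2 with KCl in WT neurites they were −0.013 (DESeq2), −0.013 (RLE), −0.0088 (all 16 libraries) and −0.00074 (the 4 libraries alone), and for neurites against soma in Mettl3 KO KCl −0.0046 (no filter) and −0.010 (mean count of at least 100). For Npas4 in neurites against soma of Mettl3 KO Ctrl they were 0.031 (DESeq2), 0.031 (RLE), 0.047 (all 16), 0.053 (the 4 alone) and 0.020 (without the 3 libraries). Npas4 in Mettl3 KO against WT neurites KCl turned to −0.26 with limma and −0.19 with the replicate block, which changed no call and no other sign in 42 values. Without the 3 libraries Arnt turned to −0.061 and −0.44 (KCl in Mettl3 KO soma and neurites), −0.47 and −0.86 (against WT with KCl) and −0.54 (genotype difference in neurites), and Arnt2 to 0.00099 (KCl in Mettl3 KO soma). For the KCl change in neurite enrichment in Mettl3 KO that fit could not be fitted, and without both libraries of KCl-treated replicate 1 Arnt gave −0.24. Arnt2 in neurites against soma of WT Ctrl became called at 0.59 with the 4 libraries alone.

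With 1 library left out, values that turned or crossed a threshold ranged as follows. For Npas4 they were −0.87 to 0.058 (neurites against soma, WT KCl), −1.13 to −0.49 (KCl change, WT), −0.42 to 0.44 and −2.13 to 0.20 (neurites against soma, Mettl3 KO Ctrl and KCl), −1.22 to −0.50 (KCl change, Mettl3 KO), and −0.72 to 0.78 and −1.32 to 0.76 (against WT, soma and neurites KCl). For Arnt they were −0.13 to 0.89 and −0.46 to 1.25 (KCl in Mettl3 KO soma and neurites), −0.67 to 0.0047 and −1.28 to 0.63 (neurites against soma, Mettl3 KO Ctrl and KCl), −0.31 to 0.51 (KCl change, Mettl3 KO), −0.48 to 0.60 and −0.83 to 1.10 (against WT, soma and neurites KCl), and −0.068 to 1.02 and −0.50 to 1.45 (genotype differences). For Arnt2 they were −0.026 to 0.30 and −0.031 to 0.077 (KCl in WT soma and neurites), −0.31 to 0.10 (KCl change, WT), −0.41 to 0.20 (KCl in Mettl3 KO soma), −0.20 to 0.34 (neurites against soma, Mettl3 KO KCl) and −1.004 to −0.56 (against WT, neurites KCl). In the fit to all 16 libraries, WT soma with KCl had 313 genes called higher and 19 lower (882 and 699 in the WT fit) and WT neurites 232 and 22 (752 and 395), and neurites against soma in WT had 0 called with or without KCl (2085 higher and 1048 lower without, 1586 and 627 with). That fit took the call from Plk2, Nptx2, Ahr, Hif3a, Epas1, Neat1, Meg3, Snhg11 and Mdm2 in WT. Of 88 and 146 values of other named genes, with 1 library left out and under other alternatives, 14 and 17 lost their call. A spread of 0.505 in Mettl3 KO with 2 litters limits what these comparisons can show.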
